A study of Mus musculus with 50 samples.

Results

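The organic ion transporters of the Slc22 and Slco families and the ATP-binding cassette (ABC) genes were examined in kidney, liver and skin fibroblasts of C57BL/6 mice. Members were every gene of the count files whose symbol was Slc22a, Slco or Abca to Abcg followed by the family's numbering, with Slco1a1 and Abcb11 left out, which gave 88 of 24984 genes. They comprised 25 Slc22, 14 Slco and 49 ABC genes, the last made up of 16 Abca, 9 Abcb, 10 Abcc, 4 Abcd, 1 Abce, 3 Abcf and 6 Abcg genes. RNA was sequenced in 38 libraries of 10 groups and open chromatin (ATAC-seq, which reads where the Tn5 transposase can reach DNA) in 12 libraries of 4 groups. Young mice were 2.5 months and old mice 23 to 25 months of age, with 4 RNA and 3 ATAC libraries for each age of kidney and of liver. The study's methods describe the young and aged mice as female. A further set held kidney and liver of mice 20 to 21 months of age that received DMSO or the agent labelled 3C, with 4 libraries each. The last set held fibroblasts from skin, labelled P9, under DMSO or 3C, with 3 libraries each. What 3C is, and what P9 counts, are not given in the sources used here. The labels number the libraries of a group without saying that each came from its own animal or culture, so the p-values measure the spread between these libraries.

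Slc22 proteins carry small organic cations, organic anions, urate, carnitine and related solutes across the plasma membrane, and in the proximal tubule of the kidney they take up and secrete drugs and metabolites. Slco genes encode the organic anion transporting polypeptides, which bring bile acids, conjugated steroids and thyroid hormones into cells such as hepatocytes. ABC transporters use ATP to move lipids, bile components, conjugates and drugs out of the cytosol. Some ABC genes have other tasks: Abce1 and the Abcf genes act in translation and ribosome recycling and cross no membrane, Abcd2 and Abcd3 proteins sit in peroxisomes, several Abcb proteins sit in mitochondria, and Abcc8 and Abcc9 are the sulfonylurea receptors of potassium channels.

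RNA libraries held 14238228 to 43704147 counts in genes, and no pair of libraries of a group agreed within sampling noise. Members took 0.875 to 0.931% of the counts in young kidney, 0.753 to 0.825% in old kidney, 0.457 to 0.576% in young liver, 0.279 to 0.542% in old liver and 0.121 to 0.149% in fibroblasts. The tissues carried their labelled markers: the summed level of 8 proximal tubule genes was 12499 to 15955 counts per 1000000 (CPM) in young kidney and 131 to 163 CPM in young liver, and 8 hepatocyte genes summed to 138760 to 174889 CPM in young liver and 191 to 269 CPM in young kidney. Old kidney replicate 2 stood apart, with hepatocyte genes at 3915 CPM. Its Slco1b2 level, 19.1 CPM, came beside 0 in each of the other 3 old kidney libraries. Among livers 3C replicate 4 held the tubule marker Lrp2 at 6.46 CPM, against 0.587 to 1.96 CPM in the other 3 3C livers. The 8 proximal tubule genes together summed to 81.9 to 158 CPM in 3C liver and 93.9 to 136 CPM in DMSO liver. Macrophage markers and B and plasma cell markers rose with age. In kidney 8 of 8 macrophage and 6 of 6 B and plasma cell genes were called, and in liver 2 of 8 and 4 of 5 tested. Of the T cell genes, 4 of 5 tested were called higher in old kidney and 0 of 4 in old liver. The 8 macrophage genes summed to 152 to 176 CPM in young and 694 to 1608 CPM in old kidney, and the 6 B and plasma cell genes to 5.62 to 11 and 375 to 559 CPM. In liver the same sums were 495 to 668 and 878 to 1607 CPM for macrophage genes and 3.99 to 4.78 and 18.9 to 81.1 CPM for B and plasma cell genes. The part of these cells in the age differences of the members was not tested, and in bulk tissue fewer cells of a type and less RNA per cell cannot be told apart. Each fibroblast library held the Y-linked gene Ddx3y, at 30.6 to 42.6 CPM, beside Xist at 64.2 to 85.4 CPM, while Ddx3y was at 0 in kidney and liver.

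Kidney expressed the widest set of members. A mean of at least 1 CPM was reached by 63 of 88 members in young kidney (21 Slc22, 7 Slco and 35 ABC), by 55 in young liver (13, 5 and 37) and by 40 in DMSO fibroblasts (7, 3 and 30). At least 100 CPM was reached by 19, 14 and 3 members. The gap between tissues lay in the uptake families, while the number of ABC genes above 1 CPM was nearly the same in kidney and liver. 4 members had no count in any library. Counting ignored strand, and 30.14% of the exonic bases of Slc22a12 overlap Nrxn2, 9.75% of those of Abca3 overlap D330041H03Rik and 9.306% of those of Slc22a3 overlap Plg, each on the opposite strand, so reads of these pairs cannot be told apart there. Closely similar members such as Abcb1a and Abcb1b, the Slco1a genes, and Slc22a26 to Slc22a30 may also have shared reads, and their separate values are uncertain to that extent.

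**Figure D1:**
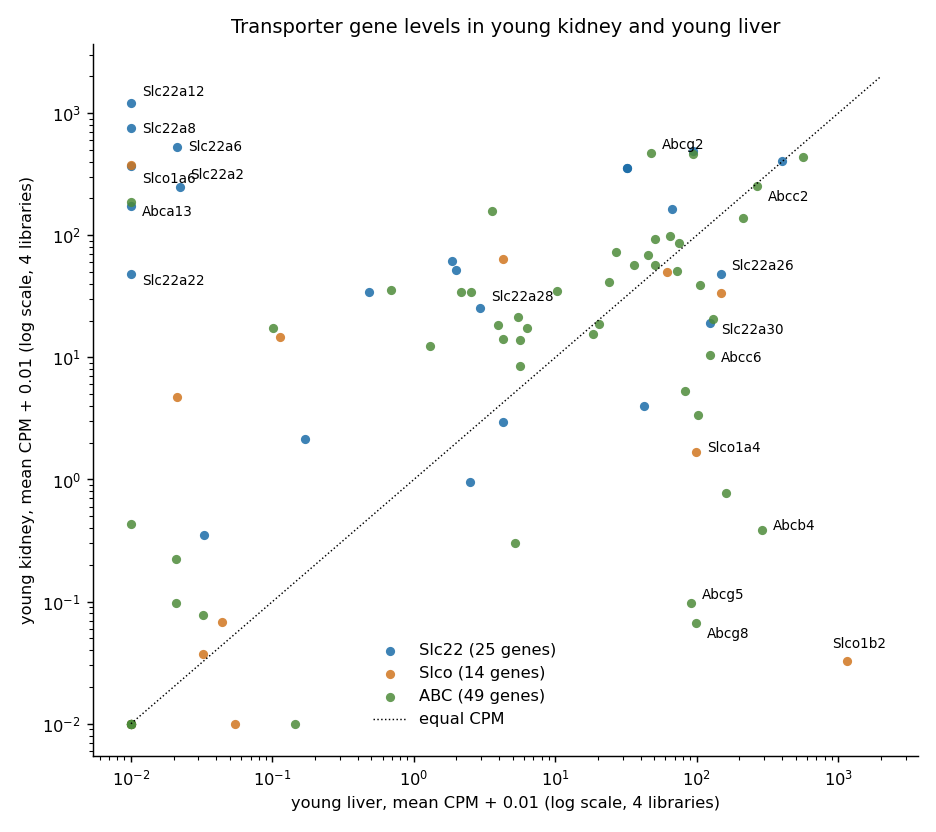
Mean level of each member in young liver (horizontal axis) and young kidney (vertical axis), in CPM plus 0.01 on log axes, coloured by family, each point 1 gene and a mean of 4 libraries. Slc22 genes fill the upper left, with Slc22a12 at 1211 CPM in kidney and 0 in liver, and Slco1b2 stands at the lower right with 1152 CPM in liver.

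Per length, in reads per kilobase of exon per 1000000 counts (RPKM), the urate transporter Slc22a12 was the most abundant member of young kidney at 535 ± 91.2 RPKM (SD, n = 4). Slc22a18, an imprinted gene of the family, followed at 291 ± 39.7 RPKM, and neither overlapped a member below it. Further down stood Slc22a8 at 193, Slc22a7 at 168, Slc22a6 at 132, Slc22a5 at 116 and Slc22a2 at 100.6 RPKM, and the libraries of each of these genes overlapped with those of the next. Young liver was led by Slco1b2 at 234 ± 11.1 RPKM. Further down stood the peroxisomal transporter Abcd3 at 85.2, then Slc22a18 at 55.4, Slc22a26 at 50.02 and Abcc3 at 37.2 RPKM. DMSO fibroblasts showed a different order, in which the 4 genes that are not transporters came first: Abcf2 at 50.7, Abcf1 at 33.2, Abcf3 at 21.2 and Abce1 at 20.1 RPKM, ahead of Slc22a17 at 11.3 RPKM.

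**Figure D2:**
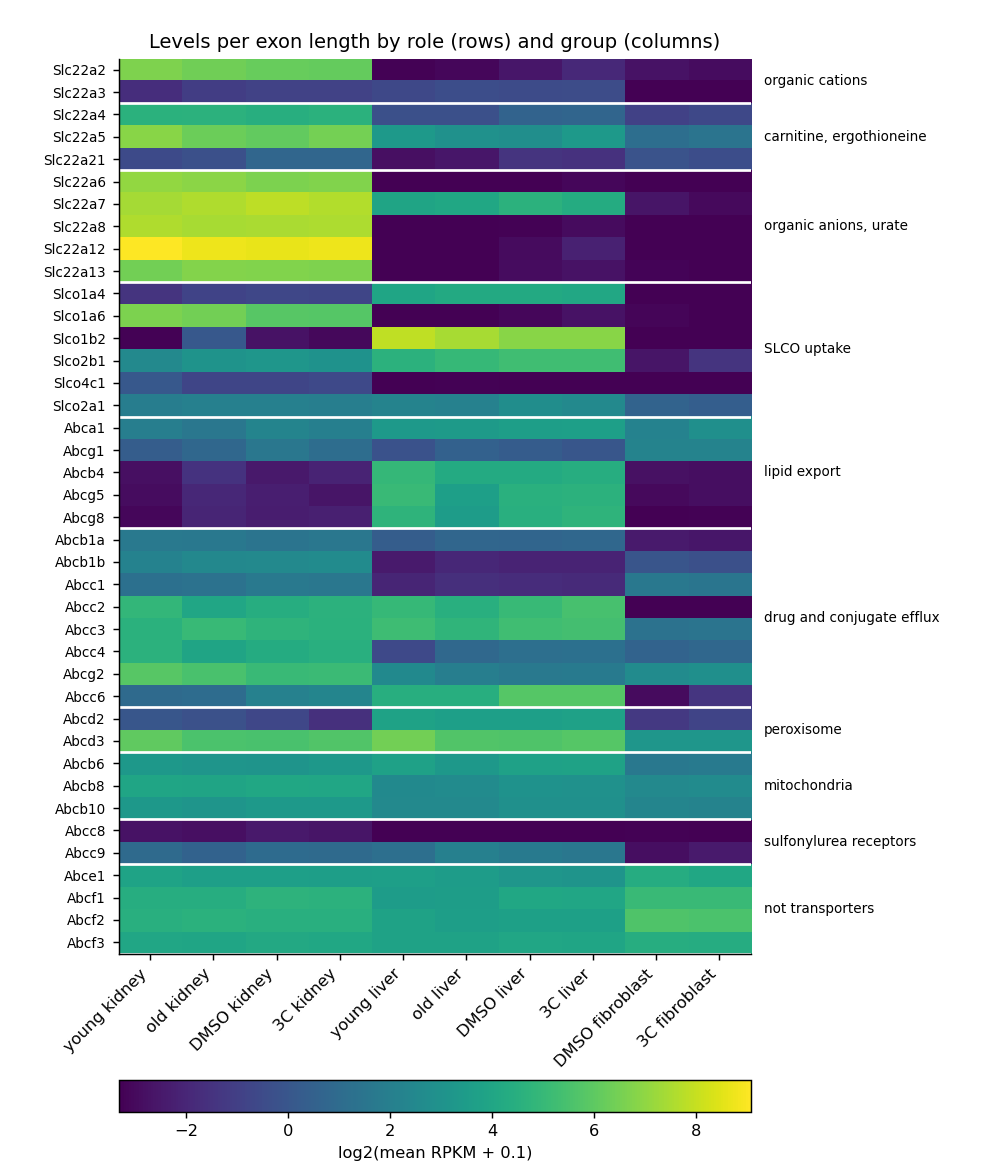
Mean level per length, as log2 of RPKM plus 0.1, of selected members grouped by role (rows) in the 10 RNA groups (columns). Organic anion and urate transporters are high in the 4 kidney groups and near the floor in liver (other than Slc22a7) and fibroblasts, and the genes that are not transporters are expressed in every group.

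The contrast of young kidney with young liver asked which members belong to which organ. Of 70 members tested, 29 were upregulated in kidney, where 25.7% of all genes tested were, and 26 were downregulated, where 16.9% were (adjusted p under 0.05 and a fold above 2, edgeR's quasi-likelihood test with Benjamini-Hochberg adjustment over all genes). In the DMSO mice 27 of 71 were higher in kidney and 25 lower, against 26.6% and 15.7% of all genes. The median log2 difference was 0.24 over members and 0.08 over all genes in the young mice, and -0.21 and 0.07 in the DMSO mice. Of the genes higher in kidney, 26 were shared by the sets, which is 89.7% of the young and 96.3% of the DMSO list, and 25 of those lower were shared, which is 96.2% and 100% (no library was common to the 2 sets). Abca3, Abca7 and Slc22a18 were called higher in kidney in the young mice alone, and Slc22a14 in the DMSO mice alone. Whether these 4 genes differed between the sets was not tested.

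These calls rest on the scaling between organs. The trimmed mean of M-values (TMM) normalisation moved kidney against liver by 1.085 on the log2 scale relative to total counts in the young mice and by 0.994 in the DMSO mice. Scaled to total counts alone, a setting chosen after seeing the data, 36 members were higher in kidney and 17 lower in the young mice and 34 and 15 in the DMSO mice, where 55.5 and 8.82% of all genes in the young and 52.1 and 8.01% in the DMSO mice were called higher and lower, with the median of all genes at 1.16 and 1.06. Of the genes described next, the calls of Slco2a1, Abcb6, Abcc2, Abcc3, Abcc9 and Abcd3 as lower in kidney were lost under total counts, and Abcb1a and Abcb8 were then called higher.

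Among cation transporters, Slc22a2, which takes up cations at the basolateral side of the proximal tubule, was a kidney gene. It stood at 217, 243, 259.6 and 279 CPM in young kidney, and a single count was found in the 4 young liver libraries together. On the TMM scale, which divides kidney over liver CPM by 2.121, the ratio was 10292-fold, with a 95% counting interval of 1847 to 406529. The ratios and bounds that follow are on the same scale, and they cover counting error only. Slc22a3, a low-affinity monoamine transporter, was low in both organs at 0.946 ± 0.383 and 2.49 ± 1.85 CPM (n = 4).

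Carnitine enters cells through Slc22a5, which stood at 376, 328, 386 and 332 CPM in young kidney and 25.7, 24.4, 50.2 and 27.0 CPM in young liver, with no overlap (log2 difference 2.38, SE 0.24, adjusted p = 2.97e-06). The ergothioneine transporter Slc22a4 stood at 67.2, 60.6, 41.7 and 76 CPM and at 2.95, 2.02, 1.40 and 1.04 CPM (log2 difference 3.99, adjusted p = 1.15e-07). Slc22a21, their close relative, was scarce in both, at 1.55 to 3.01 CPM in kidney and 0.0901 to 0.317 CPM in liver. All 3 were called higher in kidney in both sets of mice.

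Of the organic anion and urate transporters chosen as representatives (Slc22a6, Slc22a7, Slc22a8, Slc22a12 and Slc22a13), 4 were at or near 0 in young liver and Slc22a7 was present in both organs. Slc22a12 stood at 1062, 1017, 1448 and 1318 CPM in young kidney, and no count was found in the 4 young liver libraries, so it was at least 16388-fold higher in kidney. For Slc22a8, an uptake transporter of anionic drugs and uraemic solutes, the kidney libraries held 757, 715, 679 and 870.3 CPM and the liver libraries again no count, a difference of at least 10443-fold. Slc22a6, which exchanges organic anions for dicarboxylates at the same membrane, stood at 477, 495, 592 and 545 CPM in kidney with 1 count in liver, a ratio of 21598 (95% counting interval 3876 to 853101). Slc22a13, a urate and nicotinate transporter, stood at 162, 179, 163 and 195 CPM, at least 2420.5-fold above liver. Slc22a7 was shared, at 259, 361, 353 and 439 CPM in kidney and 19.4, 37.5, 27.5 and 43.0 CPM in liver (log2 difference 2.37, adjusted p = 1.09e-05). In the DMSO mice Slc22a12 and Slc22a13 had 5 counts each in liver and Slc22a8 had 1. In 3C liver the same genes had 0 to 2 counts in replicates 1 to 3 and 17, 5 and 8 counts in replicate 4, the library with the highest Lrp2.

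Kidney and liver divided the Slco family evenly: 4 genes (Slco1a6, Slco3a1, Slco4a1 and Slco4c1) were higher in kidney and 4 (Slco1a4, Slco1b2, Slco2a1 and Slco2b1) in liver, in both sets of mice, out of 8 tested. Over all genes, 25.7 and 16.9% were called higher and lower in kidney in the young mice, and 26.6 and 15.7% in the DMSO mice. Slco1a6 stood at 371, 346, 419 and 373 CPM in young kidney with no count in young liver, at least 5152-fold higher. Slco1b2, which takes up bile acids and bilirubin conjugates into hepatocytes, stood at 1139, 1203, 1184 and 1080.3 CPM in young liver with 2 counts in young kidney, a ratio of 88266 (95% counting interval 24434 to 728846). Slco1a4, a multispecific uptake transporter, stood at 126, 96.2, 67.2 and 106 CPM in liver and 2.40, 2.10, 0.913 and 1.23 CPM in kidney (log2 difference -6.95, SE 0.31, adjusted p = 1.59e-09). Slco2b1 stood at 182, 183, 135 and 95.5 CPM in liver and 34.1, 33.9, 34.8 and 32.2 CPM in kidney (log2 difference -3.20, adjusted p = 6.29e-09). The liver and kidney libraries of these genes did not overlap. The prostaglandin transporter Slco2a1 was near equal in CPM, at 43.7 to 59.3 in kidney and 54.2 to 66.3 in liver, and its call (log2 difference -1.37) was lost under total counts (-0.29).

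The 250 bases before the start of Slco1b2 are shown because they hold the motif GTTAATNAT of the hepatocyte factor HNF1, in capitals, which was searched on both strands of RefSeq promoters (build GRCm38.p6, 250 bases before to 50 bases after each start). A promoter was found for 71 of 88 members. The motif was present in 0.801% of 32851 promoters and in 2 of the 71 members, the other being Slc22a29. The share counts promoters, of which a gene can have several, while a member counted if any of its promoters held the motif. The stretch lies at chr6:141629268-141629517 on the plus strand.
Slco1b2: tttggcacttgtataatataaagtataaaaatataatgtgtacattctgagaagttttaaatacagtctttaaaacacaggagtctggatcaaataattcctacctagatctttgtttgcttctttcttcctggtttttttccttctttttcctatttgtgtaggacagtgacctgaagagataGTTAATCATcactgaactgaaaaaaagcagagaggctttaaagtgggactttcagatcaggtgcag

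Lipid exporters were found on both sides: of 11 Abca genes tested, Abca3, Abca4, Abca7 and Abca13 were called higher in young kidney and Abca1, Abca6, Abca8a and Abca8b in liver, and the call of Abca7 was lost with the length and GC trend removed. Abcb4, which flops phosphatidylcholine into bile, stood at 274, 254, 365 and 265 CPM in young liver and 0.109, 0.594, 0.421 and 0.391 CPM in young kidney (log2 difference -10.62, SE 0.34, adjusted p = 1.41e-10). Abcg5 and Abcg8, whose proteins pair to pump sterols into bile, fell by 11.04 and 11.68 on the log2 scale from liver to kidney (adjusted p = 4.49e-11 and 3.99e-11). The libraries of the organs did not overlap for any of the 3. Abca1, which loads cholesterol onto apolipoprotein, was broad, at 105, 162, 105 and 46.5 CPM in liver and 62.3, 37.8, 35.8 and 21.6 CPM in kidney (log2 difference -2.47, adjusted p = 3.82e-05), with overlap. The related sterol exporter Abcg1 was not called, at 8.52 ± 1.39 CPM in kidney and 5.65 ± 1.73 CPM in liver. Abca6, Abca8a and Abca8b, lipid-handling relatives of Abca1, were liver genes, and Abca8a stood at 115, 156, 139.5 and 108 CPM there and 23.8, 22.3, 22.1 and 14.4 CPM in kidney (log2 difference -3.74, adjusted p = 2.54e-09). Abca13, the longest gene of its family here, was a kidney gene with 299, 219, 132 and 105 CPM and no count in young liver, at least 2675-fold higher.

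Drug and conjugate exporters were split between the organs. Higher in kidney were Abcg2, an exporter of urate and drugs (476, 459, 513 and 444 CPM against 50.6, 43.1, 53.7 and 42.0 CPM, log2 difference 2.23, adjusted p = 3.56e-08), and Abcc4, an exporter of cyclic nucleotides and urate (210.1, 143, 133 and 144 CPM against 4.44, 4.56, 2.61 and 2.57 CPM, log2 difference 4.40, adjusted p = 3.31e-09). So were Abcb1b, a P-glycoprotein gene (34.2 to 36.9 CPM against 0.395 to 1.09 CPM, log2 difference 4.63), and Abcc1, which exports glutathione conjugates (29.6 to 39.8 CPM against 0.991 to 3.29 CPM, log2 difference 2.94). The libraries of the organs did not overlap for these 4. Its sister Abcb1a stood at 14.8 to 22.1 CPM in kidney and 2.46 to 12 CPM in liver, and was not called under TMM (log2 difference 0.40, adjusted p = 0.337). In liver Abcc6, whose loss leads to ectopic mineralisation, was higher, at 143, 155, 103 and 96.4 CPM against 14.1, 11.2, 6.11 and 10.2 CPM (log2 difference -4.64, adjusted p = 5.94e-09). Abcc2, the apical conjugate pump, was near equal in CPM at 197 to 317 in kidney and 175 to 327 in liver, and so was Abcc3, its basolateral counterpart, at 106 to 224 and 169.9 to 236 CPM (log2 difference under TMM -1.14 and -1.69, both called lower in kidney, and -0.07 and -0.61 under total counts, neither called).

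Of the peroxisomal ABC genes, Abcd2, a very long chain fatty acid transporter, stood at 74.1, 65.7, 127 and 63.7 CPM in liver and 4.86, 5.58, 5.83 and 4.75 CPM in kidney (log2 difference -5.07, adjusted p = 6.07e-09), with no overlap. Abcd3, which imports bile acid precursors and branched chain fatty acids, was abundant in both at 394 to 464 CPM in kidney and 405 to 638 CPM in liver. Among the mitochondrial genes, the log2 difference was -1.60 for the porphyrin transporter Abcb6, and 0.37 for Abcb8 and -0.28 for Abcb10, neither of which was called. Neither Abce1 nor an Abcf gene passed a fold of 2 in either set of mice. Of the sulfonylurea receptors, Abcc9 stood at 9.90 to 22.5 CPM in kidney and 9.64 to 23.7 CPM in liver, while Abcc8 reached at most 0.559 CPM in kidney, too low to be tested, and had no count in young liver.

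In the DMSO mice the 6 genes with the smallest p in each direction were Abca13, Slc22a8, Slc22a12, Slc22a13, Slc22a17 and Abcg2 for kidney and Abcb4, Abcc6, Abca6, Abca8b, Abcg5 and Abcg8 for liver. Slc22a17, a receptor for lipocalin-bound iron, stood at 61.5, 78.0, 82.3 and 74.5 CPM in kidney and 2.13, 1.94, 1.38 and 2.28 CPM in liver (log2 difference 4.27, SE 0.14, adjusted p = 9.26e-11). Abca6 stood at 1.05, 0.758, 0.841 and 0.524 CPM in kidney and 112, 115, 63.8 and 108 CPM in liver (log2 difference -7.91, adjusted p = 2.84e-11). Abca8b stood at 4.71, 6.14, 6.25 and 4.60 CPM in kidney and 92.2, 91.8, 64.9 and 108 CPM in liver (log2 difference -5.03, adjusted p = 6.05e-11). All 3 separated the organs without overlap.

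Age changed few members past a fold of 2. In kidney, 1 of 68 members tested was upregulated in old mice (5.68% of all genes tested) and 2 were downregulated (0.407%), with a median log2 change of -0.11 over members and 0.02 over all 14495 genes. By family the medians were -0.07 for Slc22, 0.11 for Slco and -0.15 for ABC genes. Of the 68, 2 higher and 8 lower showed no overlap between the young and old libraries, where 17.3% of all genes did in either direction.

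Slc22a26, which encodes a putative organic anion transporter, was the member most strongly downregulated in old kidney. It stood at 20.1, 53.7, 88.4 and 30.5 CPM in young kidney and 6.06, 7.90, 5.32 and 6.20 CPM in old kidney (log2 change -2.96, SE 0.41, adjusted p = 0.00217). The young libraries spread over a wide range and every old library lay below all of them. In liver the same gene stood at 124, 159.5, 196 and 111 CPM in young and 132, 194, 221 and 188 CPM in old mice (log2 change 0.24, adjusted p = 0.697), with overlap. The related gene Slc22a30 stood at 12.6, 23.2, 24.9 and 16 CPM in young and 4.38, 4.63, 6.70 and 4.39 CPM in old kidney (log2 change -1.95, SE 0.27, adjusted p = 0.00201), again with no overlap. Its liver libraries held 97.8, 129.6, 138 and 131 CPM in young and 87.7, 119.8, 67.6 and 109.9 CPM in old mice (log2 change -0.45, adjusted p = 0.363). In kidney of the DMSO mice, an age group between these that was sequenced as another set and not tested against them, Slc22a26 stood at 5.86, 6.14, 3.84 and 7.23 CPM and Slc22a30 at 3.51, 2.69, 3.42 and 10.02 CPM.

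**Figure D3:**
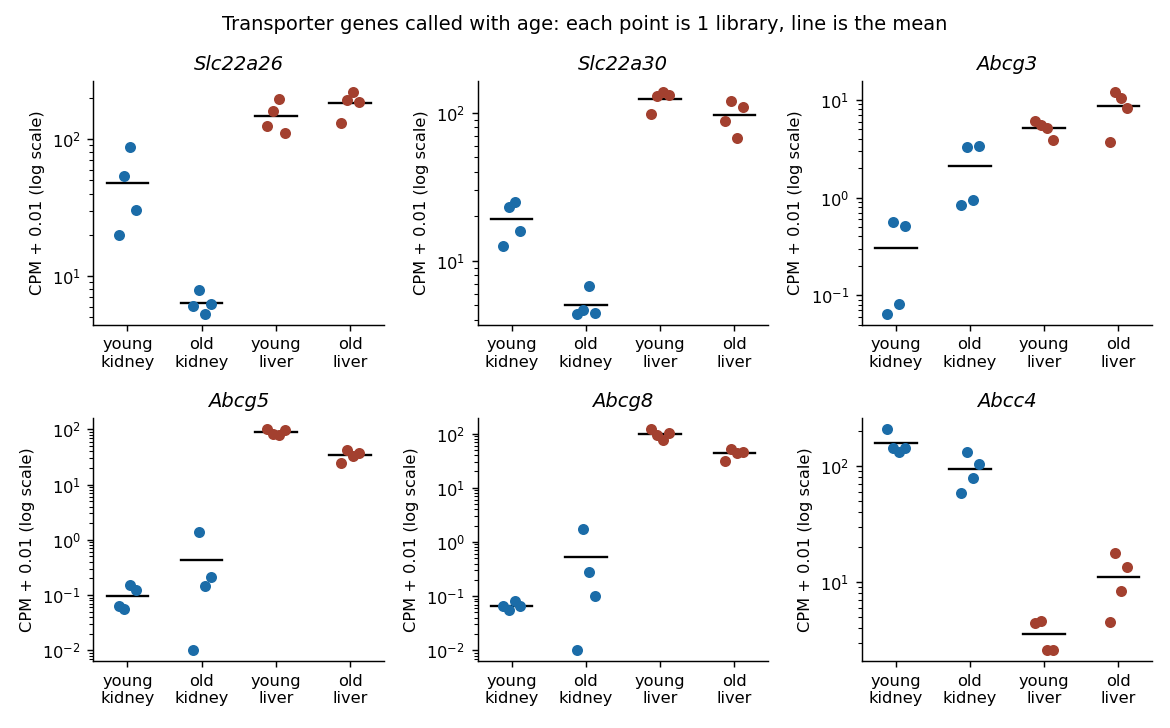
Level of the 6 members called with age, in CPM plus 0.01 on a log axis, each point 1 library and each line the mean of 4, for young and old kidney and young and old liver. Slc22a26 and Slc22a30 drop in old kidney and overlap between the ages in liver, Abcg5 and Abcg8 drop in old liver, and Abcc4 is higher in old liver, with kidney libraries that overlap.

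Both genes lie on the minus strand of chromosome 19 (GRCm38), at 7781041 to 7802667 for Slc22a26 and 8335371 to 8405111 for Slc22a30, and Slc22a27, Slc22a28 and Slc22a29 lie between them. These 5 genes are close relatives, as are Abcg3 and Abcg2, Abcb1a and Abcb1b, and Slc22a4, Slc22a5 and Slc22a21, so the values of single relatives are uncertain. In the young and old libraries 1837098 to 6225292 reads a library that aligned to several places were set aside, and in the DMSO and 3C libraries that entry is 0. The 3 genes in between were not called. Slc22a28 stood at 20.7, 27.0, 29.8 and 24.3 CPM in young and 10.9, 9.01, 21.1 and 14.3 CPM in old kidney, with the highest old library above the lowest young one (log2 change -0.90, adjusted p = 0.0617). Slc22a27 changed by 0.46 and Slc22a29 by -0.07 on the log2 scale (adjusted p = 0.248 and 0.722), the latter with 48.3 to 55.5 CPM in young and 43.4 to 53.5 CPM in old kidney. The starts of Slc22a28 and Slc22a30 are printed because they are nearly the same while the genes are not expressed alike. In the 250 bases before each start, 238 of 244 aligned bases are identical, and capitals mark the bases that differ or stand opposite a gap (RefSeq, GRCm38.p6). The stretches lie at chr19:8131983-8132232 and chr19:8405106-8405355, both read on the minus strand.
Slc22a28: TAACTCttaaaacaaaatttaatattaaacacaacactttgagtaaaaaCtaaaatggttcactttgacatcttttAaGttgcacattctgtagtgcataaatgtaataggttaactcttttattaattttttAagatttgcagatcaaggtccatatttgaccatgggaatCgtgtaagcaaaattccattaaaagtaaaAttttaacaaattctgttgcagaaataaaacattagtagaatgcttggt
Slc22a30: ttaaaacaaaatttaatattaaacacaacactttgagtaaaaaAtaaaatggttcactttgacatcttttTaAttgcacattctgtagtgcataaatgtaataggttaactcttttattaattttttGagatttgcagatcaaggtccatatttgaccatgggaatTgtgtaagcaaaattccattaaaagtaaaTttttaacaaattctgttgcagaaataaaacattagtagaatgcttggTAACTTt
Per length, Slc22a30 stood at 36.8 ± 5.32 RPKM in young liver and 5.69 ± 1.73 RPKM in young kidney, and Slc22a28 at 1.47 ± 0.873 and 12.7 ± 1.96 RPKM (n = 4 each), so the order of the genes turned around between the organs. Over the 5 genes, in the longer window of 250 bases before to 50 bases after each start, identity between other pairs ran from 57.0% to 79.3% of aligned bases. It was 98.0% for Slc22a28 and Slc22a30 in that window.

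Abcg3, a rodent relative of Abcg2, was the member upregulated in old kidney. It stood at 0.0546, 0.548, 0.0702 and 0.503 CPM in young and 0.837, 3.31, 0.938 and 3.34 CPM in old kidney (log2 change 2.70, SE 0.72, adjusted p = 0.0383). The groups did not overlap, and these are low levels, with 23 counts in the 4 young libraries together. The call was lost when young replicate 1, 2 or 3 or old replicate 4 was left out (adjusted p up to 0.113), and without old replicate 2, the library with hepatocyte RNA, the log2 change was 2.44 (adjusted p = 0.0406). Slc22a26 and Slc22a30 changed by -3.04 and -1.89 without that library (adjusted p = 0.00321 and 0.00334). Without it 4 members were called lower, as were 2.32% of all genes against 0.407% with it, and among the 4 was Abcc2 with a log2 change of -1.11 (adjusted p = 0.00269).

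More members fell by less than 2-fold. At an adjusted p under 0.05 with no demand on the fold, 11 of 68 members (16.2%) were lower in old kidney, where 3.36% of all genes were, and 1 was higher, where 8.15% were. The 11 were Slc22a26, Slc22a30, Slc22a5, Slc22a22, Slc22a23, Abca3, Abca4, Abcc2, Abcc4, Abcd3 and Abcg2, with log2 changes from -2.96 to -0.37. The carnitine transporter Slc22a5 stood at 376, 328, 386 and 332 CPM in young and 227, 275, 194 and 260.4 CPM in old kidney (log2 change -0.61, SE 0.11, adjusted p = 0.00777). Abcd3 stood at 457, 438, 464 and 394 CPM and at 289.8, 356, 253 and 329.9 CPM (log2 change -0.55, adjusted p = 0.00948). Neither gene overlapped between the ages. Slc22a22, a prostaglandin-specific anion transporter, stood at 45.3, 47.2, 53.0 and 46.4 CPM and at 22.3, 25.3, 38.0 and 28.9 CPM (log2 change -0.77, adjusted p = 0.0229), and Slc22a23, a family member of unknown substrate, at 192, 195, 134 and 131 CPM and at 89.7, 126, 67.7 and 88 CPM (log2 change -0.85, adjusted p = 0.0134). Abcg2 stood at 476, 459, 513 and 444 CPM and at 369.5, 404, 345 and 375 CPM (log2 change -0.37, adjusted p = 0.0353). These 3 were without overlap, as was Abca4, a retinoid and phospholipid flippase at 14.3 to 21.1 CPM in young and 7.58 to 12.3 CPM in old kidney. For Abcc2 (317, 277, 216 and 197 CPM against 104, 202, 106 and 139.6 CPM, log2 change -0.91, adjusted p = 0.0172) and for the lipid transporter Abca3 (527, 497, 457 and 384 CPM against 272, 396, 225 and 297 CPM, log2 change -0.68, adjusted p = 0.0153) the highest old library, replicate 2 in each, lay above the lowest young one. The proximal tubule genes moved in the same direction: 8 of them summed to 12499 to 15955 CPM in young and 9281 to 11069 CPM in old kidney, 1 of 8 was called lower, and their median log2 change was -0.56. Their part in these results was not tested.

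The most abundant anion and urate transporters of kidney were not among the genes called. Slc22a12 stood at 1211 ± 206 CPM in young and 986 ± 241 CPM in old kidney (log2 change -0.32, -0.77 to 0.13 at 1.96 standard errors either way, adjusted p = 0.37). The log2 change was -0.16 for Slc22a8 (755 ± 83.0 and 688 ± 66.7 CPM, adjusted p = 0.489) and -0.15 for Slc22a6 (527 ± 52.1 and 482 ± 56.6 CPM, adjusted p = 0.515), n = 4 throughout. Slc22a7 stood at 259, 361, 353 and 439 CPM in young and 692, 283, 331 and 321 CPM in old kidney, where 1 library was far above the rest (log2 change 0.18, adjusted p = 0.715). All 4 overlapped between the ages.

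In liver, 1 of 56 members tested was upregulated in old mice (1.69% of all genes) and 2 were downregulated (0.439%), with a median log2 change of -0.07 over members and 0.00 over all 12537 genes. Family medians were 0.12 for Slc22, 0.12 for Slco and -0.09 for ABC genes. Of the 56, 5 were lower without overlap and none was higher without overlap, against 9.18% of all genes in either direction. The downregulated genes were the sterol exporters Abcg5 and Abcg8. Abcg5 stood at 102, 83.8, 77.3 and 99.0 CPM in young and 24.4, 41.8, 32.5 and 36.8 CPM in old liver (log2 change -1.51, SE 0.17, adjusted p = 0.00168). Abcg8 stood at 122, 95.2, 75.3 and 102 CPM and at 31.4, 52.0, 43.3 and 45.4 CPM (log2 change -1.28, SE 0.18, adjusted p = 0.00573). Every old library lay below every young one for both genes. Livers of the DMSO mice, another set, held 62.1, 83.2, 48.2 and 54.8 CPM of Abcg5 and 76.6, 117, 79.3 and 66.4 CPM of Abcg8.

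Abcg5 and Abcg8 are transcribed away from each other from chromosome 17 (GRCm38), Abcg5 on the minus strand at 84658234 to 84683011 and Abcg8 on the plus strand at 84676302 to 84700333. The 109 bases between the RefSeq start of Abcg5 and the nearer of the 2 RefSeq starts of Abcg8, at chr17:84683012-84683120 on the plus strand, are shown because transcription leaves them in both directions. The other start of Abcg8 lies inside Abcg5. In the file's gene models 3.024% of the exonic bases of Abcg5 overlap Abcg8 on the opposite strand.
Abcg5 and Abcg8: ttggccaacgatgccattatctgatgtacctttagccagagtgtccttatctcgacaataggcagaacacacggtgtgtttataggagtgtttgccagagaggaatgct

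Abcc4 was the member upregulated in old liver. It stood at 4.44, 4.56, 2.61 and 2.57 CPM in young and 4.51, 17.7, 8.43 and 13.5 CPM in old liver (log2 change 1.53, SE 0.33, adjusted p = 0.0366). Old replicate 1 lay within the young range and the other 3 above it. This call was lost in 9 of 17 alternatives, among them the fit with the replicate number as a block (adjusted p = 0.0785) and each fit that left out a library other than old replicate 1. Of the 17, 1 only drops the fold threshold and cannot lose a call. In kidney the gene stood at 210.1, 143, 133 and 144 CPM in young and 58.6, 133, 78.7 and 105 CPM in old mice (log2 change -0.79, adjusted p = 0.0423), with overlap at 133 CPM.

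Other liver exporters and importers of bile constituents missed the threshold. Abcb4 stood at 274, 254, 365 and 265 CPM in young and 132, 201, 171 and 204 CPM in old liver, without overlap (log2 change -0.80, SE 0.19, adjusted p = 0.0518). Abca8a stood at 115, 156, 139.5 and 108 CPM and at 7.83, 66.2, 20.2 and 71.3 CPM, also without overlap and with old libraries that spread widely (log2 change -1.80, SE 0.49, adjusted p = 0.0851). Slco1b2 stood at 1139, 1203, 1184 and 1080.3 CPM and at 478, 1101, 801 and 1048 CPM (log2 change -0.53, adjusted p = 0.278). Old replicate 1 was the lowest old library of Abcb4, Abca8a, Slco1b2, Abcg5 and Abcg8, and without it 2 members were called higher and 4 lower with age, while the shares of all genes rose to 2.87 and 0.622%. Slc22a28, low in this organ, stood at 0.498, 4.52, 2.95 and 3.79 CPM in young and 0.700, 0.262, 0.248 and 0.0429 CPM in old liver, with overlap (log2 change -3.22, SE 0.79, adjusted p = 0.0603). Hepatocyte markers summed to 138760 to 174889 CPM in young and 87917 to 129724 CPM in old liver, with none of the list called. Their part in these values was not tested.

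The change with age was compared between the organs as an interaction, liver minus kidney, and 3 of 71 members passed at an adjusted p under 0.05, where 1.72% of all genes did. The difference of log2 changes was 3.24 for Slc22a26 (adjusted p = 0.00254), 2.38 for Abcc4 (adjusted p = 0.0074) and 1.55 for Slc22a30 (adjusted p = 0.0344). For Slc22a26 and Slc22a30 the kidney fell and the liver was not called, and for Abcc4 the log2 change was -0.79 in kidney (adjusted p = 0.0423, below 2-fold) and 1.53 in liver. Slc22a30 missed the threshold in 11 of 24 alternatives, including the fit without old kidney replicate 2 (adjusted p = 0.073) and the fit with the replicate number as a block (adjusted p = 0.0526). Abcb4, Abcg5 and Abcg8 had adjusted p-values from 0.0665 to 0.0825. They were near absent in kidney, and their kidney values were highest in old replicate 2 (6.57 CPM for Abcb4, 1.36 CPM for Abcg5 and 1.74 CPM for Abcg8), the library with hepatocyte RNA.

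**Figure D4:**
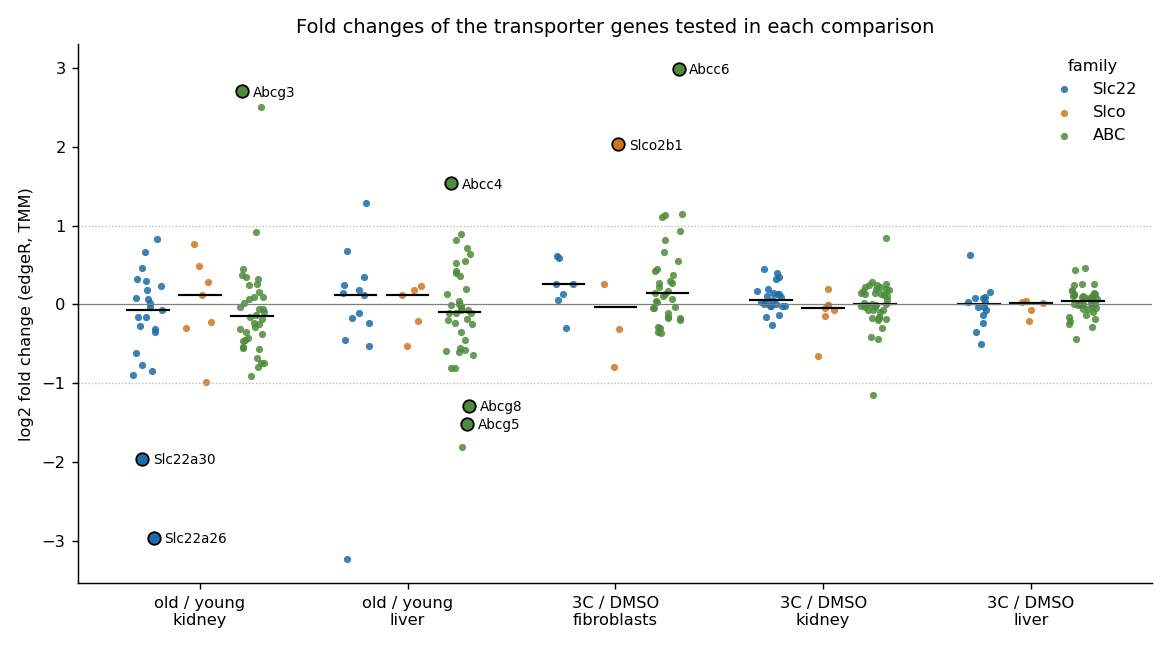
Log2 fold change of every tested member in the 5 comparisons of age and of 3C, by family, each point 1 gene and each black line the median. Family medians lie between -0.15 and 0.26, large outlined points are the genes called, and kidney and liver under 3C hold none.

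Agent 3C was set against DMSO in kidney, liver and fibroblasts. In kidney 0 of 69 members and in liver 0 of 57 were called, and the share of all genes called was 0% in both organs by edgeR. In kidney 12 members (17.4%) had an unadjusted p under 0.05, as had 11.9% of all genes, and DESeq2 called 0 members and 0.0334% of all genes. In liver 3 (5.26%) had one, as had 3.34% of all genes, and DESeq2 called 0 members and 0.0153% of all genes. The interval of 1.96 standard errors either way lay within 2-fold in either direction for 63 of 69 members in kidney and 56 of 57 in liver. It rests on the normal distribution and does not allow for the few libraries a group. Median log2 changes were 0.01 over members and 0.00 over all genes in kidney, and 0.02 and 0.00 in liver. Kidney changes ran from -1.14 to 0.85 on the log2 scale. The lowest was Abcd2, at 2.96, 1.72, 4.51 and 3.21 CPM under DMSO and 1.43, 1.03, 2.27 and 0.834 CPM under 3C (adjusted p = 0.267), with overlap. At the other end Abcb4, low in kidney, stood at 0.902, 0.758, 0.781 and 0.466 CPM and at 1.03, 1.70, 1.53 and 0.927 CPM (adjusted p = 0.33). The largest change in liver was that of Slc22a5, at 24.5, 20.9, 15.4 and 23.9 CPM under DMSO and 31.1, 25.6, 32.1 and 38.6 CPM under 3C, without overlap (log2 change 0.63, the same kind of interval 0.32 to 0.94, adjusted p = 1), and 0.52 without 3C replicate 4. In kidney Slc22a5 stood at 217, 218, 191 and 204 CPM and at 371, 205, 248 and 277 CPM (log2 change 0.44, adjusted p = 0.317), where 1 3C library lay within the DMSO range.

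The 2 genes that fell most in aged kidney were not called under 3C there. Slc22a26 stood at 13.0, 3.60, 3.28 and 3.20 CPM and Slc22a30 at 16.8, 2.57, 2.38 and 2.32 CPM in the 3C kidneys. Replicate 1 lay above the DMSO range for both genes and the other 3 below it. For the interaction of 3C with organ, 0 of 74 members passed, as for 0% of all genes, and 6 members (8.11%) had an unadjusted p under 0.05, as had 3.57% of all genes.

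In fibroblasts 2 of 45 members tested were upregulated by 3C (1.23% of all genes) and 0 were downregulated (0.632% of all genes), with a median log2 change of 0.14 over members and 0.01 over all 13449 genes. Abcc6 stood at 0.216, 0.292 and 0 CPM under DMSO and 1.66, 1.79 and 1.22 CPM under 3C (log2 change 2.99, SE 0.58, adjusted p = 0.0182). Slco2b1 stood at 0.259, 0.543 and 0.306 CPM and at 0.949, 2.25 and 1.54 CPM (log2 change 2.03, SE 0.48, adjusted p = 0.0413). Both were without overlap at low levels, with 12 and 24 counts in the DMSO libraries together. Abcc6 was lost without 3C replicate 2 (adjusted p = 0.082), and Slco2b1 without any library other than 3C replicate 1 (adjusted p up to 0.186). Abca1, the cholesterol exporter, was abundant and passed the p threshold below 2-fold, at 39.1, 53.5 and 42.1 CPM under DMSO and 74.1, 75.5 and 70.7 CPM under 3C (log2 change 0.66, SE 0.13, adjusted p = 0.0191). A macrophage list summed to 290.4 to 373 CPM in the DMSO and 118 to 179 CPM in the 3C fibroblasts, and its part in these results was not tested. The genes that are not transporters did not pass: Abce1 stood at 117, 119 and 126 CPM and at 109, 92.6 and 92.8 CPM, without overlap (log2 change -0.35, adjusted p = 0.0986), and Abcf1, Abcf2 and Abcf3 changed by -0.03, -0.17 and -0.10.

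A list of 25 partner and regulator genes, such as other solute carriers of the same substrates and nuclear receptors that control transporters, was read beside the members. With age, 1 of 24 tested in kidney was called, the antigen peptide transporter subunit Tap1, which is an ABC protein under another symbol (12.4 to 28.9 CPM on average, log2 change 1.17, adjusted p = 0.00661). In liver 1 of 21 was called, the bile acid uptake gene Slc10a2 (18.9 to 52.3 CPM on average, log2 change 1.40, adjusted p = 0.0177). Below 2-fold, 4 more passed the p threshold in kidney, with log2 changes of -0.72 for Slc10a2 (adjusted p = 0.0299), -0.78 for Ppara (adjusted p = 0.0177), 0.67 for Tap2 (adjusted p = 0.00603) and -0.46 for the bile acid receptor gene Nr1h4 (adjusted p = 0.0217). In liver 1 more did, Nr1h4 at -0.84 (adjusted p = 0.0351). None was called under 3C in any of the 3 sources, and Tap1 passed the p threshold below 2-fold in fibroblasts (log2 change 0.81, adjusted p = 0.00625). Between young kidney and young liver 6 of 24 were higher in kidney and 11 were lower, among them the hepatocyte bile acid carrier Slc10a1.

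Open chromatin was read as the presence of a deposited peak within 1 kb of a start. Of 88 members, 67, 63 and 67 had such a peak in the young kidney libraries, 64, 58 and 64 in old kidney, 61, 62 and 63 in young liver and 58, 60 and 55 in old liver. The old libraries minus the young ones differed by -3.667 members on average in kidney (exact permutation test, two-sided p = 0.3) and by -4.333 in liver (exact permutation p = 0.1, the smallest that 3 libraries against 3 allow). Over all promoters the share was 65.1 to 66.4% in young and 63.1 to 64.5% in old kidney, and 61.1 to 62.2% in young and 60.2 to 63.3% in old liver. The peak lists of old kidney were shorter, at 93072 to 108970 peaks against 115836 to 128395 in young kidney. A peak can hold several summits, each an entry of the deposited list, and with the 108883 top entries taken from each library the difference in members was -1 in kidney and -2 in liver.

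**Figure D5:**
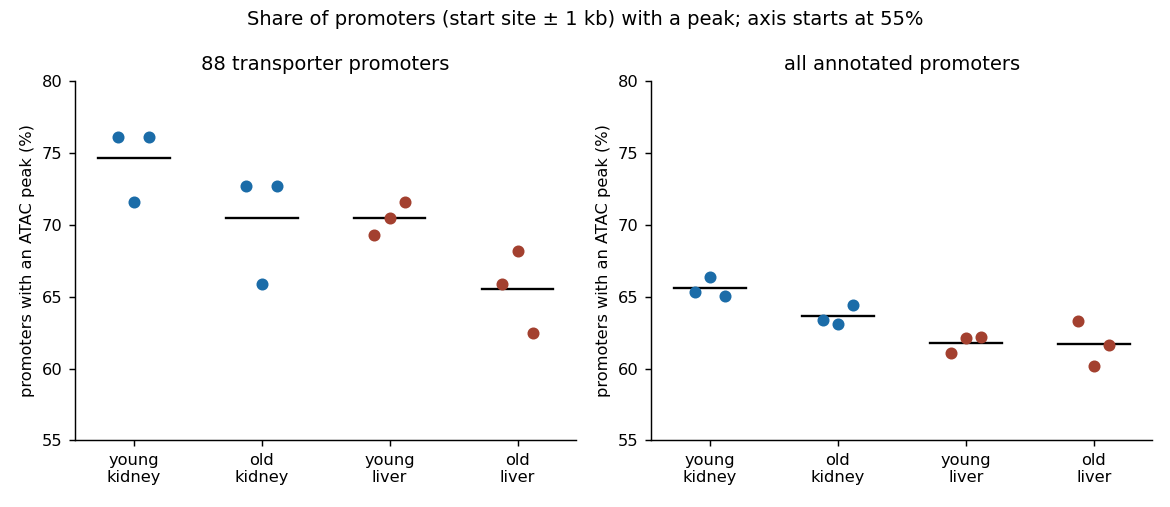
Share of promoters with a peak within 1 kb of the start, in percent, for the 88 members (left panel) and for all 24534 promoters (right panel), each point 1 ATAC library of young or old kidney or liver and each line the mean of 3. Members sit above the share of all promoters in young kidney and come nearer to it in old liver, and the vertical axis starts at 55%.

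Peaks were present in all 12 libraries at 45 of 88 member promoters (51.1%), where 50.5% of all promoters had them. By family these were 7 of 25 Slc22, 6 of 14 Slco and 32 of 49 ABC genes. A peak in all 6 kidney and no liver library was found for 3 members (3.41%, and 1.07% of all promoters), Abca15, Slc22a22 and Slco1a6. Of these Slc22a22 and Slco1a6 were kidney genes in RNA, and Abca15 was near 0 in every group. The reverse, a peak in all 6 liver and no kidney library, was found for 0 members and 0.273% of all promoters. Abcg5 and Abcg8, which share the stretch printed above and the peak at it, had a peak in 3 of 3 young and 3 of 3 old liver libraries, with a fold enrichment over background at Abcg5 of 4.675, 3.772 and 3.526 in young and 3.718, 3.82 and 3.448 in old liver. So the peak was called at each age, while RNA of both genes was lower in old liver. In kidney a peak there was found in 2 of 3 young and 1 of 3 old libraries. At Slco1b2 the fold enrichment was 3.409, 3.463 and 2.342 in young liver and 2.861, 2.584 and no peak in old liver, and 1 kidney library had a peak.

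The kidney genes with the highest RNA did not all carry a peak. Slc22a8 had one in 1 of 6 kidney libraries, Slc22a13 in 1, Slc22a12 in 3 and Slc22a6 in 4, and Slc22a6 had none in liver. Slc22a26 and Slc22a30, which fell in old kidney, had no peak in any of the 6 kidney libraries, young or old. With age, a peak in all 3 young and no old kidney library was found for 1 member, the little-expressed Abcc8 (0.448% of all promoters). No member had one in all 3 old and no young kidney library (0.175%). In liver none was gained (0.236%) and none lost (0.334%) by the same rule. Of the other motifs searched in RefSeq promoters, the AP-1 letters TGAGTCA or TGACTCA, which are each other's reverse complement, were present in 5.2% of all promoters and in 1 of 71 members, Slco2b1, and the HNF4 letters CAAAGTCCA in 0.475% and in 1 member, Abcd3. Here too the shares count promoters, and a member counted if any of its promoters matched. A match of letters is a description of the sequence and not a bound site.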

How the data were processed

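RNA-seq and ATAC-seq data of kidney and liver and RNA-seq data of fibroblasts were used as deposited. Per the submitters' processing notes and the study's methods, the authors cleaned RNA-seq reads with Trimmomatic (0.39), mapped these with HISAT2 (2.2.1) to build mm10 and deposited raw read counts per gene from HTSeq (0.12.4), which ignored strand. ATAC-seq reads were mapped with Bowtie2 (2.3.5.1), and the MACS2 peak lists that the authors deposited for each library hold a fold enrichment (a ratio over background), -log10 p-values and -log10 q-values per peak. Reads outside genes took 5.85 to 19.1% of a library and stayed out of the library totals, and 54 pairs of replicates were compared, none of which agreed within sampling noise. Protein sequences were not used here, and a few genes are not reported here.

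CPM was the count per 1000000 counts in genes, and RPKM divided CPM by exonic length from GENCODE vM21. Fits used R (4.3.3), edgeR (4.0.16) with TMM, filterByExpr at 10 counts and the quasi-likelihood test, and Benjamini-Hochberg adjustment over all genes tested. Calls needed a fold above 2 besides an adjusted p under 0.05, and an interaction needed the adjusted p alone. Each comparison was fitted on its own groups, and the interactions on the 4 groups they join. Where a group had no counts a bound was computed at 3 counts over the group, on the TMM scale. Peaks within 1 kb of a start counted as a promoter peak, and numbers of promoters were compared by exact permutation tests. Alternatives were DESeq2 (1.42.0), other size factors and filters, removal of a trend with gene length and GC content, omission of single libraries, and the replicate number as a block. Scaling by total counts was added after the data were seen. The procedure was tested on simulated data.

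The members and lists were chosen with earlier results of these data known. Values per library are given for members called (where over 12 were called, the 6 higher and 6 lower with the smallest p), and for representatives of each role at least in the young tissues, some as ranges. Same-numbered libraries of young kidney and young liver deviated together (correlations 0.12, 0.219, 0.104 and 0.452), so the numbers were taken to pair them. The highest correlation of the same liver library with a kidney library of another number was 0.071, 0.241, 0.0526 and 0.0416. Replicate 2 therefore did not stand out as a pair. The values printed above come from the fit without the block. With the block 29 members were higher and 26 lower, as without it, where 26.1 and 16.6% of all genes were called higher and lower.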

Additional observations from a re-analysis of the deposited data

Results flagged for a closer look

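The age effect differed between liver and kidney in a test of the difference itself for 3 members. The liver change minus the kidney change, on the log2 scale, was 3.24 for Slc22a26, 2.38 for Abcc4 and 1.55 for Slc22a30. With the replicate number as a block Slc22a30 missed the threshold (adjusted p = 0.0526), and Slc22a26 and Abcc4 passed.

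In 10 of the 89 groups of 4 libraries whose values are given one by one above, 1 library stood far from the other 3 by Dixon's criterion, where chance marks about 1 group in 20. In kidney these were Slc22a26 at 13.0 CPM and Slc22a30 at 16.8 CPM in 3C replicate 1, Slc22a30 at 10.02 CPM in DMSO replicate 4 and at 6.70 CPM in old replicate 3, Slc22a7 at 692 CPM in old replicate 1, Slco1b2 at 19.1 CPM in old replicate 2 and Abcc4 at 210.1 CPM in young replicate 1. In liver these were Abcd2 at 127 CPM and Slc22a5 at 50.2 CPM in young replicate 3, and Abca6 at 63.8 CPM in DMSO replicate 3.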

How the results depend on the processing

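Low counts limit Abcg3 in kidney and Abcc6 and Slco2b1 in fibroblasts, and members at 0 in an organ have only a bound. With 3 or 4 libraries a group, small changes of single members may be missed. For 363 results for single genes there were 6685 values under alternatives. Of these, 6599 kept their side of the threshold, 49 fell below it, 36 rose above it and 1 reversed. The reversed value was that of Abca7 between young kidney and liver, -0.042 with the length and GC trend removed. Direction was compared only for genes called in the main fit, so a change of sign in other genes was not counted. Slc22a26 and Slc22a30 in kidney and Abcg5 and Abcg8 in liver stayed called in all 17 alternatives each, and Slc22a26 and Abcc4 in all 24 of the interaction. Of the 17, 1 reads the main fit at adjusted p alone and cannot lose a call.

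In old kidney 2 members were higher with DESeq2 (6.47% of all genes) and with the length and GC trend removed (5.15%), and 0 to 1 with a library left out (3.95 to 5.9%). The number lower was 11 at adjusted p alone (3.36%) and 2 to 4 with a library left out (0.234 to 2.32%). In old liver 0 were higher with the replicate block (0.726%) and under total counts (1.51%) and 0 to 2 with a library left out (0.376 to 2.87%). The number lower was 4 with DESeq2 (0.893%), with no filter (0.381%) and with the trend removed (0.686%), and 2 to 4 with a library left out (0.219 to 0.622%). In fibroblasts 0 were higher at a mean of at least 1 CPM (1.27%), a filter that leaves Abcc6 and Slco2b1 untested, and 0 to 2 with a library left out (0.563 to 1.2%). The interaction held 7 members with DESeq2, 5 with the trend removed and 2 to 5 with a library left out (5 without old kidney replicate 1 or old liver replicate 1), where the share of all genes was 4.95% with DESeq2, 2.32% with the trend removed, and 1.58 and 2.99% without these libraries, against 1.72%. Total counts gave 17 lower in young kidney against liver and 15 in the DMSO mice. The cause was not tested. Mean differences in promoters with a peak ranged from -5 to -1.667 (kidney), -5.5 to -3 (liver) and 3 to 5 (young kidney against liver) with a library left out.

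In the comparisons other than young kidney against young liver, at least 1 pair of same-numbered libraries had a correlation of deviations of 0.1 or less, so the numbers were not taken to pair them. There the replicate block lost Abcc4 in old liver and Slc22a30 in the interaction (adjusted p = 0.0526).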
